A study of Mus musculus with 12 samples.

Results

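Regions that carried an ERα peak in all 4 ERα libraries and overlapped no PR peak were examined in mouse mammary glands. ERα, the estrogen receptor encoded by Esr1, and PR, the progesterone receptor encoded by Pgr, were mapped by ChIP-seq, which sequences the DNA that an antibody pulls down with its protein. The glands came from mice whose Esr1 encodes the mutant Y541S, changed in the hormone-binding part of the receptor, or from wild-type mice (WT), all 8 weeks old. Every animal carried estradiol and progesterone implants (E2+P4), and tissue was taken after 4 days of exposure, so no group was without hormone. For each receptor there were 2 libraries of Y541S glands and 2 of WT glands, 8 peak lists in all, and the 4 D542G samples were not analysed here. The chromatin came from whole glands although the title of the series speaks of luminal cells, so a peak does not show which cell type it came from. No cell-type marker could be checked, because peaks give positions and not transcript levels.

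Overlapping peaks of the 8 lists were joined into 314966 autosomal regions, and 1601 of them (0.508%) met the rule of a peak in all 4 ERα lists and in none of the 4 PR lists. The members were chosen by the presence of ERα peaks and the absence of PR peaks, so neither is a finding. They made up 8.09% of the 19797 autosomal regions with a peak in all 4 ERα lists. Of the remaining constant ERα regions, 6213 had a PR peak in 1 to 3 lists and 11983 had a peak in all 8 lists. A further 8020 regions were their mirror image, with a peak in all 4 PR lists and no ERα peak. At the edge of the rule, the 3 weakest members had a lowest ERα −log10 p of 2.04, 2.08 and 2.08. The 3 closest regions outside it, on the PR side, had a single PR peak with a −log10 p of 2.06, 2.12 and 2.20. Absence of a PR peak therefore means no called peak, and PR signal below the calling threshold cannot be seen in these lists.

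ERα and PR are nuclear receptors that bind DNA once their hormones occupy them. ERα recognises estrogen response elements, inverted repeats of a short half-site, and also reaches chromatin through other factors, mostly at enhancers far from genes. PR recognises a different repeat, shared with the glucocorticoid receptor, and its gene is itself a target of ERα in the breast. In the mammary gland both receptors are best known from hormone-sensing luminal cells, and ERα is also present in stromal cells and adipocytes.

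The few members at promoters are shown first because they are the ones for which sequence was at hand. Of the 20063 promoter windows in RefSeq's annotation of GRCm38.p6, each running from 250 bases before to 50 bases after a gene start, 32 windows of 29 genes overlapped a member. The following 3 belong to the best-ranked members at a gene start whose window holds the half-site AGGTCA, which is given in capitals. Each window reads 5′ to 3′ on the strand of its gene. In each of them the match lay inside the member. Ano5 encodes an anoctamin membrane protein, Lctl a relative of the β-glycosidases and Rxrg the retinoid X receptor γ, a partner of other nuclear receptors.
Ano5, chr7:51510779-51511078, plus strand: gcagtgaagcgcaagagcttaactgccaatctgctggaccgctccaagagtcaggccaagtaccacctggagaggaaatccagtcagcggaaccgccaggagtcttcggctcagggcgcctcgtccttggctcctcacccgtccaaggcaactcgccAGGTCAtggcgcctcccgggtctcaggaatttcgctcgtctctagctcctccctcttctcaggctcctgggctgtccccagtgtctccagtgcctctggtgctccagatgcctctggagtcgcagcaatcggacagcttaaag
Lctl, chr9:64116897-64117196, plus strand: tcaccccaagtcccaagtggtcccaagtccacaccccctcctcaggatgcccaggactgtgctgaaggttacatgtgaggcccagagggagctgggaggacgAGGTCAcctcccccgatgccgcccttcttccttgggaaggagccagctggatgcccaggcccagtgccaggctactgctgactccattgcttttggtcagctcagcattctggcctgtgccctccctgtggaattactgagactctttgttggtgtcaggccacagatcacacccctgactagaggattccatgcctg
Rxrg, chr1:167618015-167618314, plus strand: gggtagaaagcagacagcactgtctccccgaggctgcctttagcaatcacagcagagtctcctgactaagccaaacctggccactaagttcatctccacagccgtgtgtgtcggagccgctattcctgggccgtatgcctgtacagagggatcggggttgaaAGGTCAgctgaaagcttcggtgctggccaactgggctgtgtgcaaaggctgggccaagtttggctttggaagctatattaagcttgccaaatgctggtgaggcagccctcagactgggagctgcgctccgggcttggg

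The next 3 belong to the best-ranked members whose window holds a GC box, GGGCGG, or its reverse complement, again in capitals. They are shown for contrast, because this letter sequence marks many CpG-rich promoters. Pitpnm3 encodes a phosphatidylinositol transfer protein, Abhd15 a hydrolase-fold protein of fat cells and Aqp5 a water channel of glands. All 4 matches at Abhd15 lay inside the member, against 1 of 3 at Pitpnm3 and 0 of 3 at Aqp5, where the member covered only the outer part of the window.
Pitpnm3, chr11:72135840-72136139, minus strand: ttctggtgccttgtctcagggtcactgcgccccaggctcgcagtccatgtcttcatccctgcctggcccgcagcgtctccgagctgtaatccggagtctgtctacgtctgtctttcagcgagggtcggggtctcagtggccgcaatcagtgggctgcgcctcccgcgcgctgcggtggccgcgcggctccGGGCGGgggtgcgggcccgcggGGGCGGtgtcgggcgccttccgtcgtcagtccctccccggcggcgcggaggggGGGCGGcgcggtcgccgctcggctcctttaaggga
Abhd15, chr11:77514867-77515166, plus strand: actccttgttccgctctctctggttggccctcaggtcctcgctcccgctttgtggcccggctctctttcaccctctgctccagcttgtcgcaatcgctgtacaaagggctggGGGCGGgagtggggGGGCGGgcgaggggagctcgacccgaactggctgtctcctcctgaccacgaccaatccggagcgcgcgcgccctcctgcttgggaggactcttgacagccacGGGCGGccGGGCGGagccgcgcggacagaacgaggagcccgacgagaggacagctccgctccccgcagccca
Aqp5, chr15:99590778-99591077, plus strand: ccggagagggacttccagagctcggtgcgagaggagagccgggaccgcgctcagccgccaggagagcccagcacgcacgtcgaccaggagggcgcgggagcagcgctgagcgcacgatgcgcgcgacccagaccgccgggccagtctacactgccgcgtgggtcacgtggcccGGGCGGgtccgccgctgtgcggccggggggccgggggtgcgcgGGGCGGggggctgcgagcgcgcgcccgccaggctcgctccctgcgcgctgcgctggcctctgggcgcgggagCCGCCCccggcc

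Read on both strands, AGGTCA occurred in 8 of the 32 windows that members overlapped (25%), in 10.9% of the windows overlapped by regions with a peak in all 8 lists and in 14.7% of all windows. The full estrogen response element, GGTCA and TGACC 3 bases apart, which would contain the last 5 letters of the half-site, was found in 0 of the 32 windows of members, 0 of the 6080 of regions in all 8 lists and 11 of all 20063. The progesterone and glucocorticoid element, GNACA and TGTNC 3 bases apart, was found in 0 of 32 windows. It was rare everywhere, in 0.263% of the windows of regions in all 8 lists and 0.459% of all windows. GC boxes stood in 16 of the 32 windows, in 67.8% of the windows of regions in all 8 lists and in 47.0% of all windows. The E-box CACGTG occurred in 7 of 32 windows (21.9%), against 11.6% with regions in all 8 lists and 7.89% of all windows. The ETS motif CCGGAAG occurred in 3 of 32 (9.38%), against 24.6% with regions in all 8 lists and 11.9% of all windows. A match is a description of letters and not a bound site, and several windows belong to the same gene. The windows also differed in composition, with a median of 13.0 CpG pairs where members overlapped them, 23.0 with regions in all 8 lists and 14.0 over all windows. Windows with at least 20 CpG pairs made up 31.2% where members overlapped, 63.0% with regions in all 8 lists and 37.1% over all windows.

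The members lay mostly away from promoters. A midpoint within 1 kb of a coding gene start was found for 71 members, 4.43% (95% Wilson interval 3.53 to 5.56%), against 5712 regions in all 8 lists, 47.7% (46.8 to 48.6%). The difference was −43.2 percentage points, with an interval of −44.5 to −41.8 that covers counting error only. The share was 29.5% among constant ERα regions with some PR peak, 7.04% over all merged regions and 2.22% in the mirror class of PR regions without ERα. Rarity at gene starts was therefore shared by both classes bound in the lists of 1 receptor. The share at a gene start also climbed with the number of PR lists holding a peak, being 4.43%, 8.76%, 16.6%, 42.4% and 47.7% for 0, 1, 2, 3 and 4 lists. Gene starts came from the promoter table where a gene had an entry there, and from both ends of the gene otherwise.

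**Figure D1:**
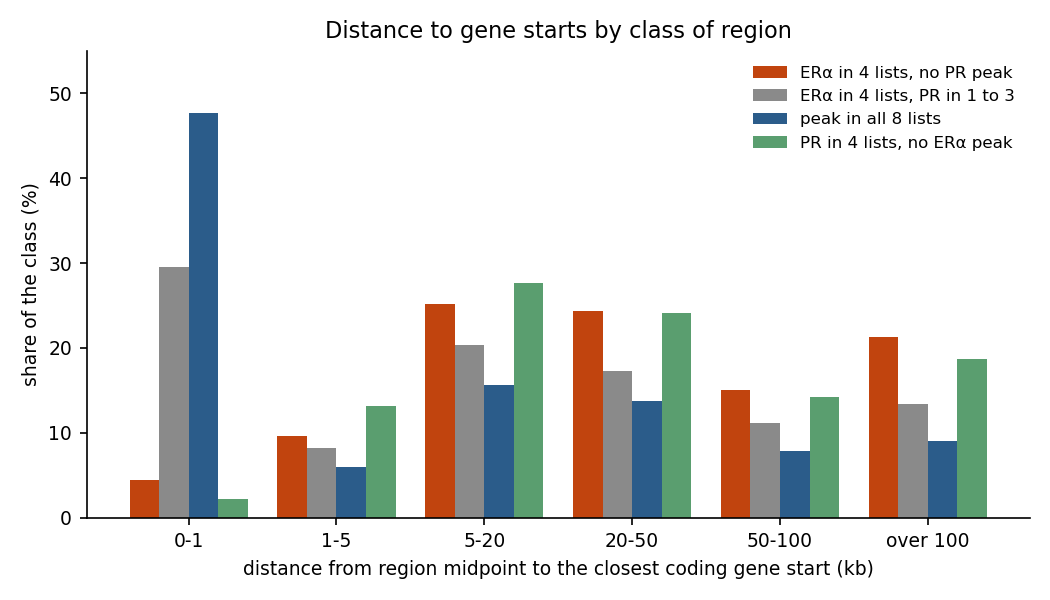
Share of each class of region (%, y axis) by distance from the region's midpoint to the closest coding gene start (kb, x axis), with the bars of a class adding up to its whole. Members hold 4.43% within 1 kb, against 47.7% for regions in all 8 lists, and 21.3% beyond 100 kb, against 9.05% for regions in all 8 lists.

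The median member stood 30.5 kb from a gene start, against 2.19 kb for regions in all 8 lists and 25.9 kb for the mirror class. The median distance was 13.1 kb for constant ERα regions with some PR peak and 27.2 kb over all merged regions, the latter near that of members. By position, 736 members (46.0%) lay inside a coding gene away from its start, 490 (30.6%) outside genes but within 50 kb of one, and 304 (19.0%) over 50 kb from any coding gene. That remote were 8.96% of regions in all 8 lists, 12.7% of constant ERα regions with some PR peak and 15.7% of the mirror class. Members were also compact. Their median width was 549 bp, with quartiles of 452 and 671 bp, against 1024 bp for regions in all 8 lists and 531 bp for the mirror class. The number of lists joined adds to the width of a region, and 1493 members (93.3%) consisted of exactly 4 peaks. The summits of the 4 ERα peaks spread over a median of 105 bp in members and 206 bp in regions in all 8 lists. They use the same 4 lists in every class, but a wider joined region leaves room for summits farther apart. Single ERα peaks were also narrower than in regions in all 8 lists. Median widths in members were 375 and 339 bp in Y541S and 391 and 296 bp in WT. Regions in all 8 lists had 580 and 570 bp in Y541S and 487 and 427 bp in WT. Constant ERα regions with some PR peak had 433 and 421 bp in Y541S and 362 and 328 bp in WT. Members were thus wider than that last class in WT replicate 1. The spread of summits was 100 bp or less in 48.2% of members and 23.9% of regions in all 8 lists.

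PR peaks were seldom far away. The closest PR peak of any list lay at a median of 2.04 kb from a member, with quartiles of 0.726 and 4.59 kb. It was within 0.1 kb of 64 members (4.00%), within 1 kb of 509 (31.8%) and within 5 kb of 1231 (76.9%), and over 50 kb from 23. In the PR lists of Y541S glands 307 and 297 members had a peak within 1 kb, and in those of WT glands 224 and 284. Only 127 members (7.93%) had a PR peak within 1 kb in all 4 PR lists. The PR lists are long, and how near a random site would lie to a PR peak was not computed. A region with a peak in all 8 lists was found within 10 kb of 17.2% of members, close to the 18.3% for regions in all 8 lists measured against others of their own class. By median distance to such a region members were the farthest, at 43.2 kb, against 29.5 kb for regions in all 8 lists. The median was 32.2 kb for constant ERα regions with some PR peak and 37.7 kb for the mirror class.

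Members were not the weak tail of the ERα lists, but a rule of a peak in all 4 ERα lists itself favours well-ranked peaks. Their ranks are therefore set beside those of other constant ERα regions. Each peak was ranked within its own list by −log10 p, with 0% for the strongest and 100% for the weakest. The strongest peak of the median member ranked at 12.0% and 18% in the Y541S libraries and at 9.21% and 24.3% in the WT libraries. Regions in all 8 lists ranked at 9.84% and 9.18% in Y541S and at 17.8% and 16.4% in WT. Members were thus ahead of that class in WT replicate 1 and behind it in the other 3 libraries. Their range was wide, with 27 members in the strongest 1% of all 4 ERα lists, 180 (11.2%) in the strongest 5% and 15 in the weaker 50% of every list. In the deposited fold enrichment of their strongest peak, members ranged over 2.13 to 23.6 and 2.19 to 21.0 in the Y541S lists, with medians of 5.17 and 4.37. In the WT lists they ranged over 2.02 to 22.3 and 2.15 to 19.3, with medians of 5.31 and 4.22. In both genotypes replicate 1 held the higher median fold of the members, whereas the medians of regions in all 8 lists were 5.11 and 5.01 in Y541S and 4.28 and 4.33 in WT.

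**Figure D2:**
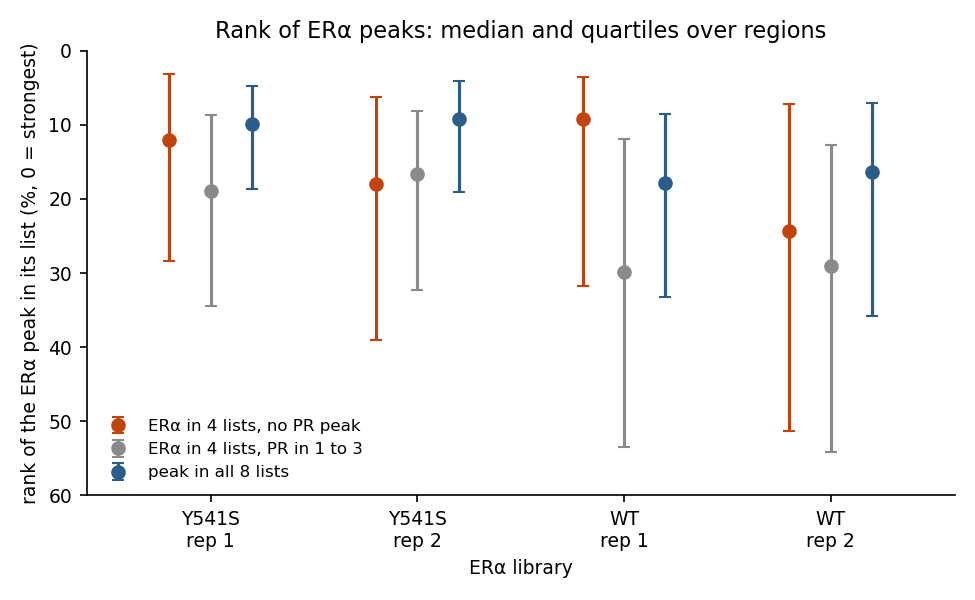
Rank of each region's strongest ERα peak in its list (%, y axis reversed, 0 is the strongest) for the 4 ERα libraries (x axis), with points for medians and bars for quartiles over regions of 3 classes. Members sit at 12.0% and 18% in Y541S and at 9.21% and 24.3% in WT, while the other classes stand higher in the plot in both Y541S libraries than in both WT libraries.

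The order of members was partly shared between libraries. The Spearman correlation of their ranks over the 1601 members, which share the same rule, was 0.652 between the Y541S replicates and 0.562 between the WT replicates. It was highest, 0.788, between replicate 1 of Y541S and replicate 1 of WT, and lowest, 0.507, between the replicates 2.

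The absence of a PR peak differed more by position than by ERα strength. When the 19797 constant ERα regions were divided into 5 equal groups by their worst rank over the 4 ERα lists, regions without PR made up 9.77% of the strongest group, then 5.51%, 6.69%, 8.59% and 9.87% of the weakest. Away from gene starts the share was 14.7% (95% Wilson interval 13.4 to 16.1%) in the strongest group and between 11.4% and 12.2% in the others, with 12.6% over all 12184 such regions. At gene starts it was 0.369% in the strongest group and 2.59% in the weakest, with 0.933% over 7613 regions. The intervals at gene starts and elsewhere did not overlap in any of the 5 groups. By chromosome the share without PR ran between 5.52% on chromosome 17 and 9.81% on chromosome 3. On the X chromosome, outside the rule, 25 of 247 constant ERα regions had no PR peak.

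**Figure D3:**
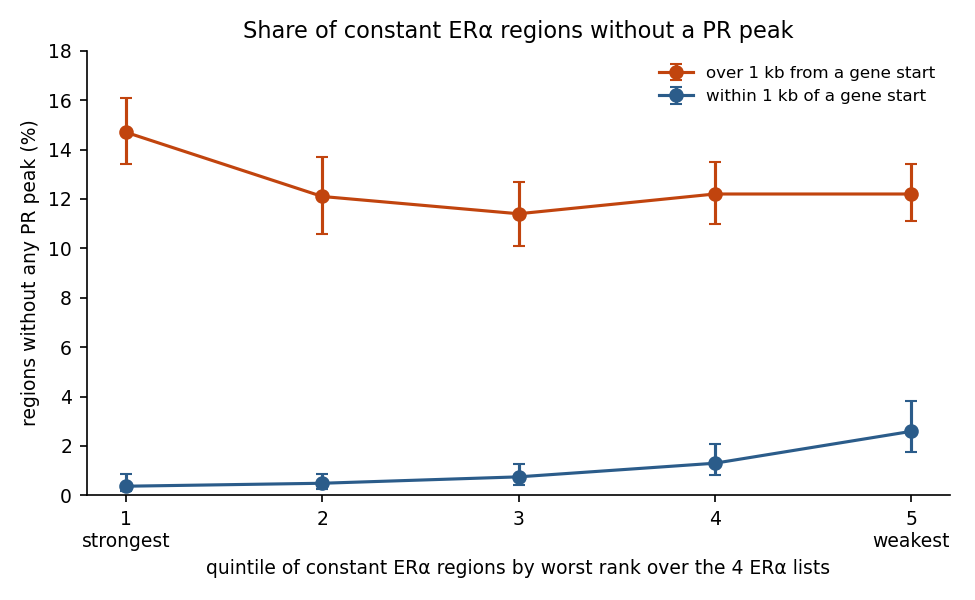
Percentage of constant ERα regions without any PR peak (y axis) by quintile of ERα strength (x axis, 1 is the strongest), with points for shares and bars for 95% Wilson intervals, separately within 1 kb of a gene start and farther away. The line for regions away from gene starts lies between 11.4% and 14.7%, above the line for gene starts, which lies between 0.369% and 2.59%.

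Between genotypes, the median rank of members averaged 15.0% ± 4.25 in Y541S and 16.8% ± 10.7 in WT (SD, n = 2 each). The difference of −1.76 points was smaller than the spread between replicates (two-sided exact permutation p = 1 over 6 arrangements, where 0.333 is the smallest possible). Within replicate 1 it was 2.78 and within replicate 2 −6.30, so the replicates differed in sign. Leaving out Y541S ERα replicate 1 gave 1.58 points, and leaving out WT ERα replicate 2 gave 3.80 points. Regions in all 8 lists averaged 9.51% in Y541S and 17.1% in WT, and their libraries did not overlap (exact permutation p = 0.333). Percentiles from lists of unequal length cannot be read as a change, however, because the Y541S ERα lists held 106926 and 105612 peaks and the WT lists 72566 and 64488. Counted as the number of a peak from the top of its list, the median member stood at 12820 and 19010 in Y541S and at 6686 and 15672 in WT. The mean difference of 4736 places then had the opposite sign (exact permutation p = 0.667), and with every list reduced to its 60000 strongest peaks it was 4.25 points (p = 0.667 by the same exact test). Set against regions in all 8 lists by number from the top, members stood a mean of 5807 places farther from the top in Y541S and, at −572 places, closer to it in WT, a difference of 6380 places (exact permutation p = 0.667).

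The ranks of single members gave the same dependence on scale. Both Y541S peaks ranked ahead of both WT peaks by percentile in 316 members (19.7%), against 37.2% of all constant ERα regions, and both WT peaks ranked ahead in 171 (10.7%), against 5.06%. By number from the top, both Y541S peaks stood ahead in 123 members (7.68%), against 18.2% of all constant ERα regions, and both WT peaks in 387 (24.2%), against 14.4%. On both scales members had a smaller share favouring Y541S and a larger share favouring WT than constant ERα regions as a whole, and no test was made over regions. The widest percentile gaps, chosen after their values were seen, included a member in Stmn4, which encodes a stathmin of neurons. It had a fold enrichment of 3.04 and 2.95 in Y541S against 6.70 and 6.95 in WT. A member in Nav1, which encodes a neuron navigator protein, had 3.58 and 4.86 in Y541S against 2.43 and 2.76 in WT.

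Fold enrichments are the authors' values per peak and were not scaled between libraries, so below they describe each library. The strongest members lay far from promoters and had nearly coincident summits. The best by worst rank, at chr10:96863196-96863891 and 37.8 kb from the predicted gene Gm46240, had fold enrichments of 21.0 and 19.7 in Y541S and 18.8 and 16.3 in WT. The next, at chr1:65040648-65041369 beside the lens crystallin gene Cryge, had 23.6 and 21.0 in Y541S and 20.5 and 18.6 in WT. A member 7.68 kb from Creb5, which encodes a transcription factor of the CREB family, had 19.3 and 17.0 in Y541S and 17.5 and 16.8 in WT, with all 4 summits within 1 bp. These 3 had Y541S values above both WT values except for the Creb5 member, where the libraries interleaved.

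The other 9 of the 12 best-ranked distal members were closest to Gm1322, Chmp4b, Anxa6, Gm14444, Zfp423, Etnk1, Adam12, Arhgap42 and Tmem270. Among them Chmp4b encodes an ESCRT subunit, Anxa6 a calcium-dependent membrane-binding protein, Etnk1 ethanolamine kinase and Adam12 a metalloprotease. Their fold enrichments ran from 12.0 to 22.3 in Y541S and from 9.83 to 21.8 in WT. The closest PR peak lay within 1 kb of 7 of the 12, down to 0.178 kb for that near Gm46240, and as far as 14.3 kb for that near Gm14444. In 5 of those 7 the PR peak stood within 1 kb in a single PR list, and only the members near Anxa6 and Tmem270 had such a peak in all 4.

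**Figure D4:**
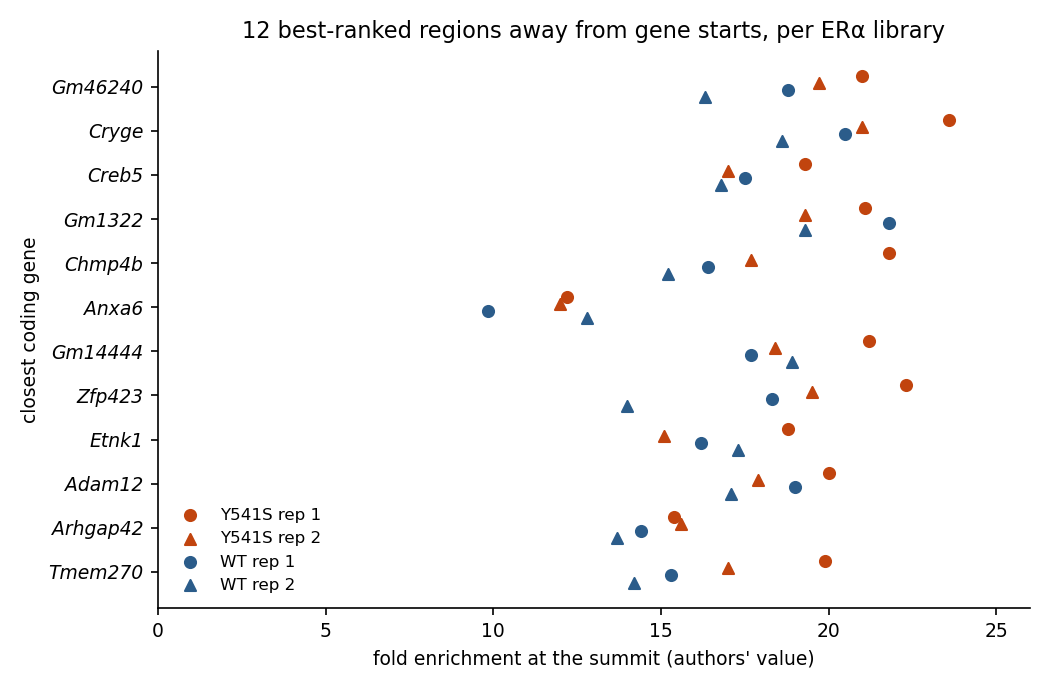
Deposited fold enrichment at the summit (x axis) of the ERα peaks in the 12 best-ranked members away from gene starts, named by their closest coding gene (y axis), with 1 point per library. Fold enrichments of the Gm46240 member are 21.0 and 19.7 in Y541S and 18.8 and 16.3 in WT, and the lowest in the plot is 9.83, near Anxa6 in WT replicate 1.

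At gene starts, where 72 of 20665 autosomal coding genes (0.348%) had a member within 1 kb, the strongest member stood 0.675 kb from the start of Rps6kl1, which encodes a relative of the ribosomal S6 kinases. Located at chr12:85150187-85150992, it had fold enrichments of 14.5 and 12.4 in Y541S and 13.2 and 9.68 in WT. The Pitpnm3 member had 8.74 and 5.72 in Y541S and 7.82 and 6.57 in WT, so the libraries interleaved. The member at Wnt9b, which encodes a secreted Wnt ligand, had 6.47 and 7.43 in Y541S and 8.77 and 5.21 in WT. Others of the 12 best stood at Minar2, Mrps33 (a mitochondrial ribosomal protein), Abhd15, Slc6a16, Tpst2 (a tyrosylprotein sulfotransferase), Papln, Aqp5, Asb4 and Ano5. Members at gene starts were the weaker ones, with median ranks of 20.5% and 24.9% in Y541S and 34.5% and 31.8% in WT, against 11.1% and 17.3% in Y541S and 8.29% and 24.3% in WT for those inside genes away from the start.

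Genes were linked to members when the midpoint of a member fell within 50 kb of the gene, which was so for 2396 of 20665 autosomal coding genes (11.6%). A gene so linked need not be controlled from the member, and long genes or genes in gene-poor stretches differ in their chance of a link. Of 34 estrogen response genes, 7 were linked (20.6%, 95% Wilson interval 10.3 to 36.8%), with the background inside the interval. They were Egr3, Esr1, Greb1, Nrip1, Rara, Siah2 and Xbp1. The member near Xbp1, which encodes a transcription factor of the secretory stress response, had fold enrichments of 11.9 and 6.36 in Y541S and 10.2 and 6.28 in WT. Within Nrip1, which encodes a corepressor of nuclear receptors, a member had 9.64 and 6.46 in Y541S and 7.38 and 7.51 in WT. Within Rara, the retinoic acid receptor α gene, it was 5.07 and 3.47 in Y541S and 6.56 and 4.21 in WT. All 3 had overlapping values between genotypes.

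Of 10 classical targets, 3 had a member within 50 kb, beside 11.6% of all genes. Esr1 itself, Greb1, an estrogen-induced cofactor of ERα, and Xbp1 had 1 member each within 50 kb, beside 3, 9 and 5 regions with a peak in all 8 lists. The Esr1 member lay inside the gene, 157 kb from the closest start, with modest fold enrichments of 5.17 and 3.31 in Y541S and 3.25 and 4.75 in WT. Pgr, Tff1, a secreted trefoil peptide, Areg, an EGF-family ligand, Tnfsf11, which encodes RANKL, Wnt4, Ccnd1 (cyclin D1) and Myc had 0. Of these, Pgr, Tff1, Ccnd1 and Myc had 1 region in all 8 lists each and Tnfsf11 had 2. Areg and Wnt4 had 0 of either kind. A count of 0 members is what most coding genes showed, whereas 67.5% of them had a region in all 8 lists within 50 kb.

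Among the marker lists of mammary cell types, that of adipocytes had the highest share of genes with a member. Of 6 adipocyte genes, 5 had a member within 50 kb (83.3%, interval 43.6 to 97.0%), against the 11.6% of all genes. They were Adipoq, which encodes adiponectin, Fabp4, a fatty acid carrier, Lep, which encodes leptin, Plin1, a coat protein of lipid droplets, and Pparg, the main transcription factor of fat cells. Cidec, a protein of droplet fusion, had none. Constant ERα regions with a PR peak in 1 to 3 lists lay within 50 kb of all 6 of these genes, against 44.8% of all genes, so a share above the background was not limited to regions without PR. Regions in all 8 lists lay near 83.3% of the 6 genes, against 67.5% of all genes, and regions of the mirror class near 3 of 6, against 43.0% of all genes. The count was 4 at 20 kb (6.93% of all genes) and 5 at 100 kb (18.8% of all genes). The list is short, and the choice of lists was made with earlier results of these data known.

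The members near adipocyte genes differed in strength. At Pparg the member at chr6:115511119-115511958, 21.1 kb from the gene, had fold enrichments of 10.2 and 5.77 in Y541S and 7.53 and 6.34 in WT. At Lep, 16.2 kb from the gene, it had 8.06 and 6.26 in Y541S and 12.0 and 5.52 in WT. At Fabp4, 5.46 kb away, it had 5.27 and 6.09 in Y541S and 6.59 and 4.96 in WT. None of these 3 separated the genotypes, and their closest PR peaks lay 5.38, 3.71 and 1.44 kb away. At Adipoq, where the closest coding gene to the member was Rfc4, fold enrichments were 7.48 and 3.93 in Y541S and 8.02 and 4.28 in WT. The Plin1 member was the weakest of the 5, with 5.88 and 3.74 in Y541S and 4.49 and 3.18 in WT, and ranked as low as 66.9% in WT replicate 2. Adipoq and Plin1 were named after their values were seen.

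A second, longer adipocyte list, drawn up after these values were seen and therefore no independent support, had 10 of 34 genes linked (29.4%). They were Cebpa, Cfd, Cidea, Ebf1, Irs1, Lpl, Mgll, Pck1, Plin4 and Scd1. Of these, Lpl encodes lipoprotein lipase, Cebpa a transcription factor of fat cell differentiation and Scd1 a fatty acid desaturase. The Lpl member had fold enrichments of 7.79 and 6.43 in Y541S and 7.92 and 4.26 in WT, and the Scd1 member 5.25 and 4.12 in Y541S and 8.12 and 4.16 in WT. On this list the other classes also stood above their shares of all genes. Constant ERα regions with some PR peak lay within 50 kb of 73.5% of the 34 genes, against 44.8% of all genes. For regions in all 8 lists it was 91.2% against 67.5%, and for the mirror class 67.6% against 43.0%. Second lists for other cell types, added at the same time, had 8 of 24 basal and myoepithelial genes linked (33.3%), 4 of 20 fibroblast genes, 2 of 35 luminal genes (5.71%), 1 of 17 endothelial genes and 0 of 18 immune genes. A count above the background was therefore not limited to adipocyte genes. The basal genes were Egfr, Itga6, Lama3, Lamb3, Lmod1, Nrg1, Pdpn and Tns1, of which Itga6, Lama3 and Lamb3 encode parts of the adhesion of basal cells to laminin. Of the 24 genes on that list, 79.2% had a constant ERα region with some PR peak within 50 kb, against 44.8% of all genes. For regions in all 8 lists it was 70.8% against 67.5%, and for the mirror class 54.2% against 43.0%. Their median length was 34.4 kb, against 17.5 kb for all genes.

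The first lists for the other cell types held 4 to 9 autosomal genes each, beside 6 in the adipocyte list, and had lower shares. There were links for 2 of 9 hormone-sensing luminal genes (Esr1 and Ly6d), 2 of 7 luminal progenitor and alveolar genes (Elf5 and Kit), 1 of 7 basal genes (Trp63), 1 of 4 endothelial genes (Pecam1), 0 of 4 fibroblast genes and 0 of 5 immune genes. Kit encodes the receptor for stem cell factor, and the member 33.1 kb from it had 13.9 and 12.8 in Y541S and 14.2 and 6.98 in WT. The Trp63 member, near the gene of the basal transcription factor p63, was weaker, with 4.99 and 3.31 in Y541S and 3.84 and 3.47 in WT. Whether members come from 1 cell type or several was not tested.

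**Figure D5:**
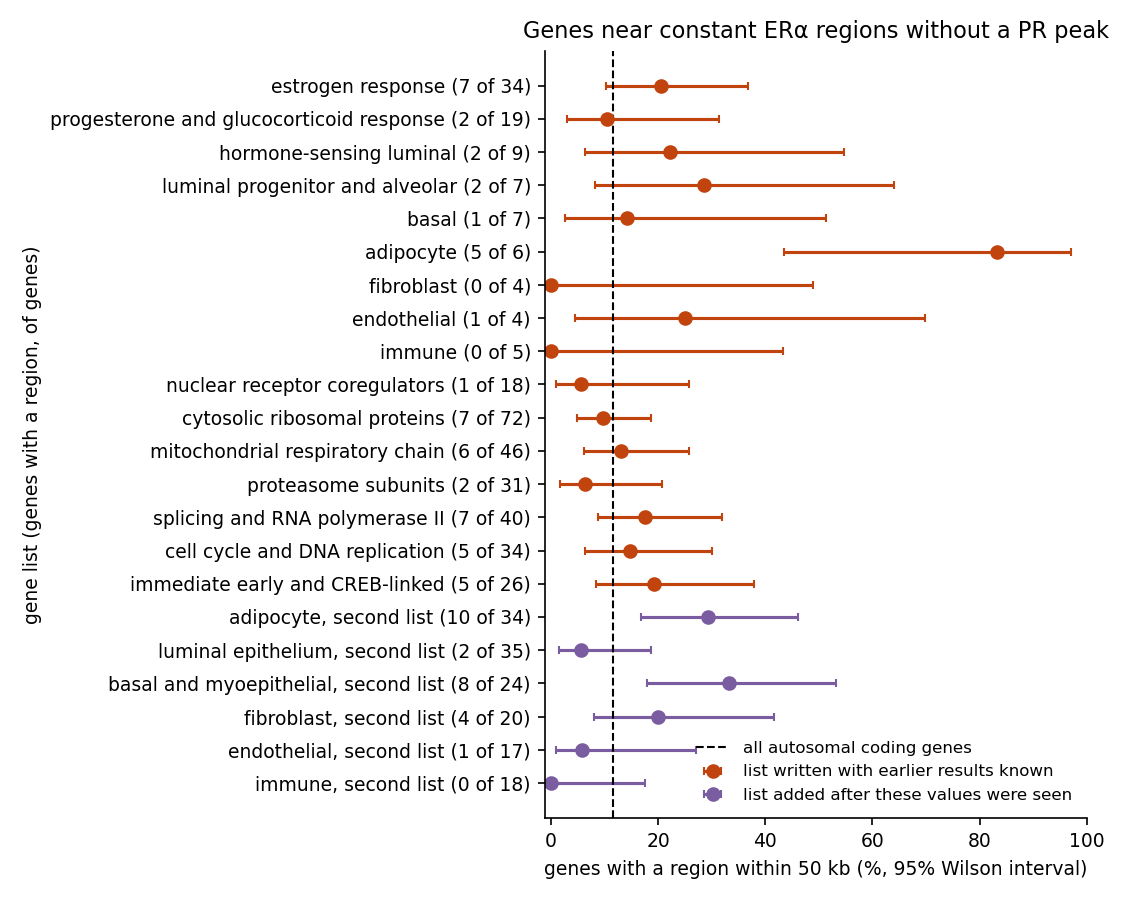
Percentage of the autosomal genes of each list with a member within 50 kb (x axis, bars are 95% Wilson intervals) by list (y axis, with counts), and a dashed line at 11.6% for all autosomal coding genes. The adipocyte list stands at 83.3%, the luminal epithelium list added after these values were seen at 5.71%, and most intervals include the dashed line.

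Lists of housekeeping functions stayed near the background. Links were found for 7 of 72 cytosolic ribosomal protein genes (9.72%), 6 of 46 genes of the mitochondrial respiratory chain (13.0%), 2 of 31 proteasome genes (6.45%) and 7 of 40 splicing and RNA polymerase II genes (17.5%). By contrast 95.8% of the ribosomal protein genes and 100% of the respiratory chain genes had a region in all 8 lists within 50 kb. Cell cycle and replication genes had 5 of 34 links (14.7%), among them Cdkn2c, which encodes the cell cycle inhibitor p18. The member 9.02 kb from it was among the strongest near any listed gene, with 15.8 and 12.4 in Y541S and 22.3 and 8.24 in WT. Cdc6 and Top2a of this list were both linked through the same member, that within Rara, which also counted for the estrogen response list. Immediate early and CREB-linked genes had 5 of 26 links (19.2%), including Nr4a1, an orphan nuclear receptor, with 7.44 and 6.37 in Y541S and 8.30 and 4.36 in WT. Genes of the progesterone and glucocorticoid response had 2 of 19 (10.5%), namely Elf5, a transcription factor of alveolar cells, and Sgk1, a kinase induced by steroids. Nuclear receptor coregulators had 1 of 18 (5.56%), Nrip1, although all 18 had a region in all 8 lists.

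Members seldom clustered. Of the linked genes, 2099 had a single member within 50 kb, 257 had 2, 30 had 3, 7 had 4 and 3 had 5. Those 3 were the neighbours Car1 and Car3, which encode carbonic anhydrases and shared 6 members between them, and Zfp423, a zinc-finger factor of preadipocytes. No region with a peak in all 8 lists lay within 50 kb of any of the 3. Near Car1 and Car3 the strongest member had fold enrichments of 10.3 and 5.89 in Y541S and 12.9 and 7.38 in WT. Around Zfp423, a gene of 300 kb, the strongest had 22.3 and 19.5 in Y541S and 18.3 and 14.0 in WT, both Y541S values above both WT values, and the other 4 ran from 3.31 to 7.91 in Y541S and from 3.04 to 5.04 in WT. Of the 7 genes with 4 members, the first 2 by alphabet were Adamts2 and Aff3. Adamts2, which encodes an enzyme that trims procollagen, and Aff3, a nuclear protein gene, had 4 members each, beside 4 and 2 regions in all 8 lists.

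The count of members rested on each library, since the rule needs all 8. Without WT ERα replicate 2, the shortest ERα list, it was 3399, over 1.5 times as high, whereas the 7 other omissions left it between 1732 and 2190. With only the PR peaks of −log10 p of at least 5 counted it was 2694. It fell to 1092 with no PR peak within 1 kb and to 1176 at −log10 p of at least 5 in all lists. When a library was left out, the share of members at gene starts lay between 4.27% and 6.22%. It was below the share of regions in all 8 lists every time.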

How the data were processed

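From 8 libraries, 2 for each receptor in Y541S and in WT glands, the peak lists were read. Minced glands were fixed and 30 µg of chromatin, sheared to 300 to 500 bp, was precipitated with 4 µg of antibody, per the labels' protocols. The authors deposited 1 list per library, on mm10 per the submitters' processing notes; aligner and caller are not given in the sources used here. The authors' columns were a score (not used), a fold enrichment (a ratio), and the −log10 of a p-value and of a q-value. The −log10 p was at least 2.00, and read depth is unknown.

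Peaks were merged at 1 bp of overlap with Python 3.11.15, numpy 2.4.6 and pandas 2.3.3, and the merging was tested on simulated data. Gene spans came from a RefSeq table of GRCm38.p6, the assembly of mm10, with starts from its promoter table for 17492 of 21887 coding genes and both ends otherwise. No genome was used, so only promoter windows were searched for motifs. The 12 motifs were the estrogen response element, AGGTCA, the progesterone and glucocorticoid element, forkhead, AP-1, CRE, CCAAT, GC box, ETS, NRF1, YY1 and E-box, and those not described in the text were counted too. Intervals are 95% Wilson intervals over regions or genes and cover counting error only, and genotypes were compared with exact permutation tests of library medians. The labels do not say how many animals a replicate held, so p-values measure the spread between these libraries.

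The members and the gene lists were chosen with earlier results of these data known. Named genes were those closest to the 12 best-ranked members at gene starts and the 12 best elsewhere, the best-ranked linked genes of each list, 10 classical targets and the 5 genes with most members (ties taken by alphabet); others are marked as picked afterwards. The alternatives tried were summit windows, a 1 kb margin to PR peaks, stricter p or q, lists of equal length, other distances, ranking by fold, a replicate block and omission of each library. Promoter-table starts, numbers from the top of a list and the adipocyte settings were added after seeing the data.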

Additional observations from a re-analysis of the deposited data

How the results depend on the processing

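The count of 1601 members was 2694 with PR peaks of −log10 p of at least 5 only, and 1732 to 3399 with 1 library left out, the highest without WT ERα replicate 2. It was lower with no PR peak within 1 kb (1092), at −log10 p of at least 5 in all lists (1176) and at −log10 q of at least 1.3 (1358). The share at gene starts, 4.43%, was 6.37% with summit windows, 5.98% with PR peaks of −log10 p of at least 5, 5.99% with 60000 peaks a list, 2.69% within 0.5 kb, 8.43% within 2.5 kb, 3.25% with promoter-table starts and 4.27 to 6.22% with 1 library left out. Its difference from regions in all 8 lists, −43.2 points, was −39.8 with summit windows, −45.6 at −log10 q of at least 1.3, −47.5 at −log10 p of at least 5, −38.4 with that threshold on PR lists only, −41.7 within 0.5 kb, −36.9 with promoter-table starts and −43.9 to −35.2 with 1 library left out. The rank difference, −1.76 points, was 4.25 with 60000 peaks a list, 4736 places by number from the top, 1.58 without Y541S ERα replicate 1 and 3.80 without WT ERα replicate 2, within a range of −7.78 to 3.80 over omissions; none reached the threshold, which 2 libraries a group cannot reach. The adipocyte count stayed between 4 and 6 of 6.

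With the replicate number as a block the rank difference was −1.76 (exact permutation p = 1). The sample titles give same-numbered replicates only that number in common, and whether they were processed together is not known. Over 1601 members the rank differences between replicates 1 and 2 correlated between WT and Y541S with Pearson's r of 0.121, as a description. The Spearman correlation of ranks between genotypes was 0.788 for the replicates 1 and 0.507 for the replicates 2. The lists give no read depth, and PR signal below the calling threshold is not visible in them.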
